A study of Mus musculus with 7 samples.

Results

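The 10 genes described here are members of the Bmp pathway: the ligands *Bmp2*, *Bmp4*, *Bmp5*, *Bmp7* and *Bmp10*, the secreted antagonists *Nog* and *Grem1*, and the response genes *Smad6*, *Id1* and *Msx2*. They are 10 of the 21475 genes named on the array and were chosen by symbol, every non-control probe of that symbol being taken, which gave 14 probes. RNA came from posterior second heart field (pSHF) tissue, the mesenchyme behind the heart tube from which cells of the atrial septum come, dissected from mouse embryos at E9.5. Per the study's methods the tissue kept its attached foregut, and the heart and neural tube were removed. The 2 groups were *Shh* -/- (4 pools) and +/+ (3 pools), both on a mixed C56B/6 and CD-1 background and both from crosses of *Shh* +/- parents in which the females had been superovulated. Tissue of several embryos was combined after genotyping, so no value belongs to a single embryo, and the sample on an array is called a pool here. The comparison asks which transcripts of the pSHF depend on *Shh*, and here whether those of Bmp signaling do.

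Bmp ligands are secreted dimers of the transforming growth factor beta family. They bind paired type I and type II serine/threonine kinase receptors, and the activated receptor phosphorylates Smad1, Smad5 and Smad9, which enter the nucleus with Smad4. Secreted antagonists such as noggin and gremlin bind the ligands outside the cell and keep them from the receptors. Genes such as *Id1*, *Smad6* and *Msx2* are commonly read as responses to the pathway, and *Smad6* is itself an intracellular inhibitor of it. In the heart, Bmp signaling is known for roles in the formation of myocardium from second heart field progenitors, in the endocardial cushions and in the outgrowth of the dorsal mesenchymal protrusion into the atrium.

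Shown here are 5 probes as the array carries them, since the member values below rest on them: those of the 2 ligands with the largest differences, of the ligand best known from the lateral mesoderm, of the antagonist with the largest difference and of the inhibitory Smad. Each is a 60-base oligonucleotide, written 5′ to 3′ in the orientation of the transcript with no base set apart, because the whole oligonucleotide is the detector. Each has at least 1 reading frame free of stop codons. Positions are those the array files give on mm9, and no exon annotation of that build was used.
*Bmp2* (chr2:133386981-133387040, plus strand): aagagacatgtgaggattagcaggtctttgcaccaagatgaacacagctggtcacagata
*Bmp10* (chr6:87383924-87383983, plus strand): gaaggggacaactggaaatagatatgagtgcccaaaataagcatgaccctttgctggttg
*Bmp4* (chr14:47003802-47003861, minus strand): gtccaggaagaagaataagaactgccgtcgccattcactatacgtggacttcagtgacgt
*Nog* (chr11:89162849-89162908, minus strand): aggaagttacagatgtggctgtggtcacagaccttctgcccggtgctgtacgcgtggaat
*Smad6* (chr9:63801378-63801437, minus strand): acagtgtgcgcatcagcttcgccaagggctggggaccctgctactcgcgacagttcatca

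All values below are normalized log2 intensities, and a difference is the mean of the *Shh* -/- pools minus the mean of the +/+ pools. Levels of different probes are not read as relative amounts of their transcripts, because probes differ in how brightly they bind. A summed level of a marker list adds the intensities of its probes, so its brightest probes weigh most. The 7 arrays were spread over 4 slides. Pools 1, 3 and 4 of the 2 genotypes were hybridized side by side, the mutant pool in position 1 and the wild-type pool in position 2 each time, and an effect of position therefore cannot be told apart from one of genotype. Pool 2 exists for the mutant genotype only, and its label records a possible leak. Between 59.8% and 70.6% of probes were well above background on an array, and no spot was saturated. The targeted gene *Shh* read 9.22 to 9.67 in the mutant pools and 9.98 to 10.74 in the wild-type pools, a difference of -1.08 ± 0.20 (SE; limma adjusted p = 0.0652), and whether its probe lies in the deleted part is not given in the sources used here. By their brightest probes, the Hedgehog pathway genes *Ptch1* (-1.17; limma adjusted p = 0.143), *Gli1* (-1.02; adjusted p = 0.0673) and *Hhip* (-2.83; adjusted p = 0.00126) were also lower in every mutant pool than in every wild-type pool, and of the 4 genes only *Hhip* passed the test. The genotypes overlapped for the second *Ptch1* probe (-1.19; limma adjusted p = 0.757). All 9 pSHF markers examined, among them *Tbx5*, *Isl1* and *Osr1*, were well above background on every array, and so were all 12 cardiomyocyte markers and all 7 foregut endoderm markers. The pSHF list mean was 11.09 to 11.36 in the mutant and 11.43 to 11.59 in the wild-type pools, with 7 of 9 markers lower, and the foregut list mean 9.59 to 9.73 and 9.93 to 9.97, with 7 of 7 lower, and 0 markers of either list passed the limma test. The part of these list shifts in the member values was not tested.

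No difference of a Bmp member between the genotypes passed the test. Of the 10 genes, 9 with 11 probes were bright enough to be tested, and 0 of 9 passed an adjusted p of 0.05 in limma, against 0.558% of the 23116 probes tested. With the slide as a replicate block the count was again 0 of 9, against 0.0476% of all probes. It was also 0 at an unadjusted p under 0.05, which 7.96% of all probes passed. An own version of SAM, the permutation-based test of the study's methods, called 0 as well. Unlike the study, that version used a threshold of 0.05 and no cut on the fold change. In 0 of the 9 did all mutant pools lie on 1 side of all wild-type pools, a pattern seen in 8.34% of probes. For 8 of the 9 the 95% interval of the difference lay within 2-fold in either direction, as it did for 93.9% of all probes, and for 5 of the 9 it lay within 1.5-fold, as it did for 72.3%. The exception at 2-fold was *Bmp2*.

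By role, all 5 ligands had positive differences with a median of 0.12, both antagonists negative ones with a median of -0.18, and all 3 response genes positive ones with a median of 0.096, where the median over all probes tested was 0.018 and 55.4% of them were positive. The SD between pools of the mean over a role was 0.23 for ligands, 0.24 for antagonists and 0.19 for response genes. It is a spread of single pools and not the error of a role's median difference, and the medians were not tested. Leaving out 1 array moved these medians. That of the ligands was 0.029 without wild-type pool 4, that of the antagonists was -0.060 without mutant pool 3 and -0.27 without mutant pool 1, and that of the response genes was 0.054 without mutant pool 1 and 0.18 without mutant pool 2. Set against the wild-type mean, the mean of the ligands was 0.31, 0.42, 0.25 and -0.18 in mutant pools 1 to 4, and -0.16, 0.16 and -0.0019 in wild-type pools 1, 3 and 4. The response genes stood at 0.15, -0.16, 0.15 and 0.39 in the mutant pools, and at 0.040, 0.080 and -0.12 in the wild-type pools. Mutant pool 4 was thus the lowest of the 7 pools for the mean of the ligands and the highest for that of the response genes. By gene, it was the lowest pool for *Bmp2* and *Bmp10*, but not for *Bmp4*, *Bmp5* or *Bmp7*. Among the response genes it was the highest for *Id1* and *Msx2* and the lowest for *Smad6*. The antagonists were at 0.10 and 0.065 in mutant pools 1 and 2 and at -0.53 and -0.35 in pools 3 and 4, with all wild-type pools in between.

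**Figure D1:**
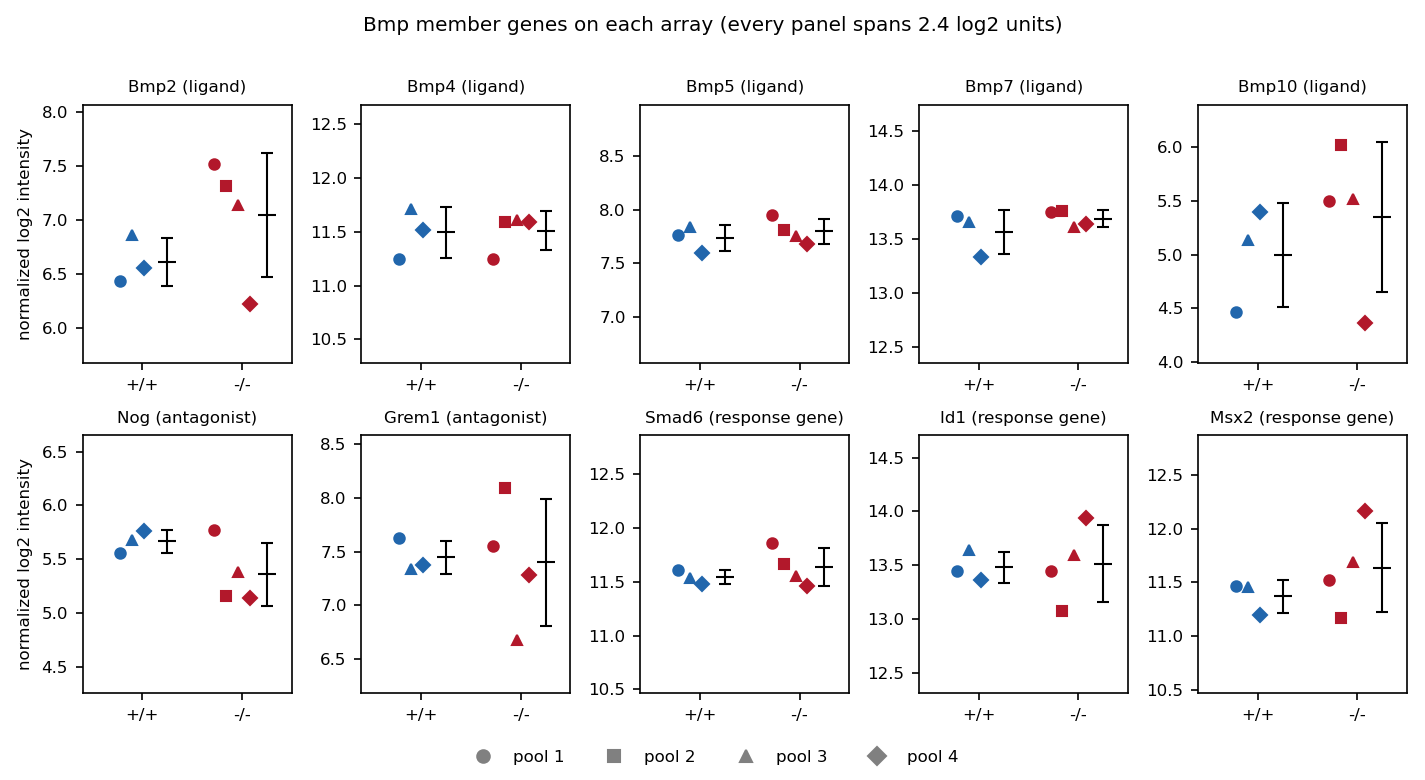
Normalized log2 intensity (vertical axis, 2.4 log2 units in every panel) of the brightest probe of each Bmp member on each array. Blue points are +/+ pools, red points *Shh* -/- pools, marker shapes give the pool number, and the black bar is the mean with 1 SD (n = 3 and n = 4); the genotypes overlap in all 10 panels, and mutant pool 4 is the lowest point for *Bmp2* and *Bmp10* and the highest for *Id1* and *Msx2*.

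*Bmp2*, a ligand of the myocardium and of the atrioventricular canal, had the largest difference of the members. It read 7.52, 7.31, 7.14 and 6.22 in mutant pools 1 to 4, and 6.43, 6.86 and 6.55 in wild-type pools 1, 3 and 4. Mutant pools 1, 2 and 3 were above every wild-type pool, and mutant pool 4 was below every one. The difference was 0.44 ± 0.28 (SE; 95% interval -0.21 to 1.08), or 1.35-fold, and did not pass the test (limma adjusted p = 0.940; exact two-sided permutation p = 0.257, where 4 against 3 pools cannot go below 0.0286). The SD was 0.57 among mutant pools (n = 4) and 0.22 among wild-type pools (n = 3). Within slides, mutant minus wild type was 1.09, 0.28 and -0.33 on slides 1, 3 and 4. Leaving out 1 array, the difference ran from 0.28 without mutant pool 1 (limma unadjusted p = 0.344) to 0.71 without mutant pool 4 (unadjusted p = 0.00204, adjusted p = 0.136).

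*Bmp10*, a ligand of the trabecular myocardium, was near background, being well above it in 3 of 4 mutant and 2 of 3 wild-type pools, and was therefore not among the probes tested. Its values were 5.50, 6.02, 5.52 and 4.37 in the mutant pools and 4.46, 5.14 and 5.39 in the wild-type pools. The order resembled that of *Bmp2*, with mutant pools 1, 2 and 3 highest and mutant pool 4 lowest. The difference was 0.35, and a fit without the filter on dim probes gave it a 95% interval of -0.53 to 1.23 (limma unadjusted p = 0.382, adjusted p = 0.985). It was 0.68 without mutant pool 4 (limma adjusted p = 0.429), 0.55 without wild-type pool 4, 0.13 without mutant pool 2 and 0.086 without wild-type pool 1.

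Markers of cardiomyocytes varied among the pools in nearly the same order as *Bmp2*. Marker lists were named where they moved with a member, so this likeness is no finding. The mean over the 12 cardiomyocyte markers was 14.16, 13.84, 13.76 and 12.84 in mutant pools 1 to 4, and 13.50, 13.64 and 12.90 in wild-type pools 1, 3 and 4. Mutant pools 1, 2 and 3 were again the highest and mutant pool 4 the lowest. All 12 markers had positive differences between genotypes, with a median of 0.25, and 0 of 12 passed the limma test. Their summed level ranged from 283379 to 439304 in the mutant pools and from 230889 to 352731 in the wild-type pools, and no marker of the list was below background on any array. In bulk tissue, fewer cells of a type and less RNA per cell cannot be told apart. Among the other marker lists, that of 8 endothelial genes had a similar order. Its mean was 11.34, 11.15, 11.21 and 10.94 in mutant pools 1 to 4. In wild-type pools 1, 3 and 4 it was 10.96, 11.08 and 11.14. The order was thus not particular to the cardiomyocyte markers. The part of either list in the values of *Bmp2* and *Bmp10* was not tested.

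**Figure D2:**
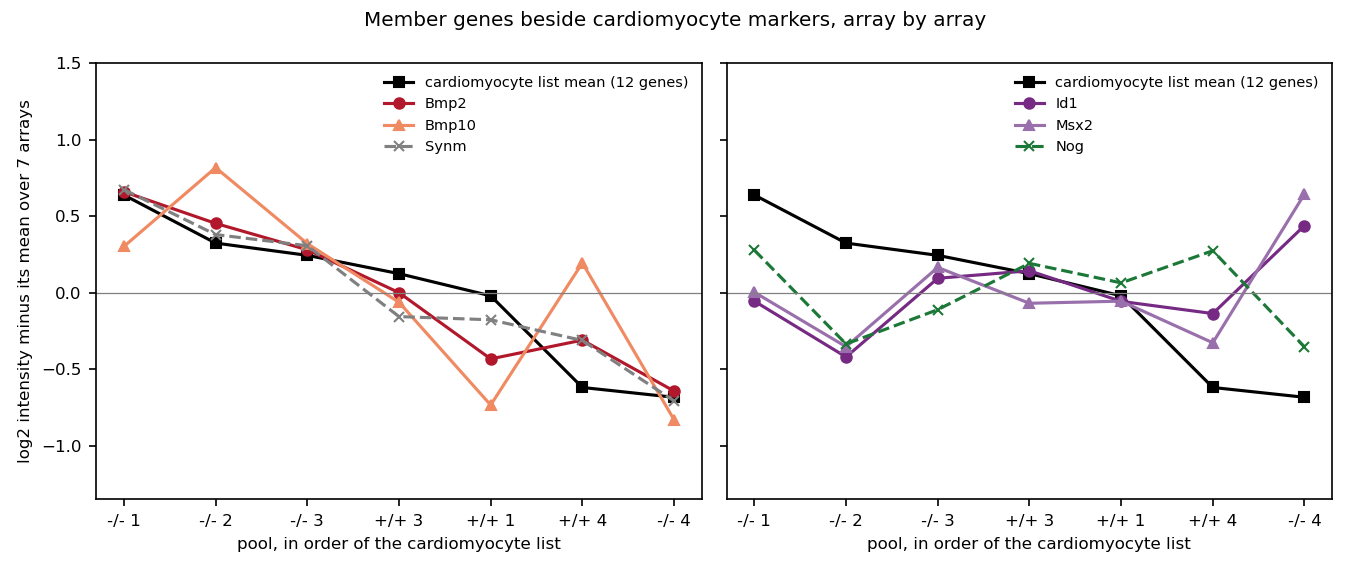
Log2 intensity minus its mean over the 7 arrays (vertical axis) for each pool (horizontal axis, in falling order of the mean of 12 cardiomyocyte markers, black squares). On the left, *Bmp2*, *Bmp10* and *Synm* have their highest value in mutant pool 1 or 2 and their lowest in mutant pool 4, as the black line does. The marker list was named because it moved with a member, so that likeness is no finding. *Synm*, a muscle gene, is 1 of the 3 genes chosen for likeness to *Bmp2*, so its likeness is no finding either. The other 2, *Tbc1d4*, which was closer, and *Rsf1*, are not drawn. On the right, *Id1* and *Msx2* are highest in mutant pool 4, where *Nog* is low.

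The 3 genes whose profile over the 7 arrays was closest to that of *Bmp2*, by mean absolute difference of centred log2 values among 21551 probes, were *Tbc1d4* (0.067), *Synm* (0.085) and *Rsf1* (0.10), where the median probe was at 0.42. *Synm* encodes synemin, an intermediate filament protein of muscle, and *Tbc1d4* a Rab GTPase-activating protein of insulin-stimulated glucose uptake. *Synm* read 9.56, 9.26, 9.19 and 8.18 in the mutant pools and 8.71, 8.73 and 8.57 in the wild-type pools. The likeness to *Bmp2* is what chose these genes and is no finding, and in *Rsf1* mutant pool 3 (8.72) did not stand above the wild-type pools (8.26, 8.72 and 8.72). None of the 3 passed the limma test (adjusted p = 0.9997 for each).

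*Bmp4*, the ligand best known from the lateral and splanchnic mesoderm, had the smallest difference of the members. It read 11.24, 11.60, 11.61 and 11.59 in mutant pools 1 to 4 and 11.25, 11.72 and 11.52 in wild-type pools 1, 3 and 4. The lowest pool of each genotype was pool 1, and these 2 shared a slide. The difference was 0.016 ± 0.15 (SE; 95% interval -0.32 to 0.36; limma adjusted p = 0.9997), and within slides it was -0.0037, -0.10 and 0.069. The ends of the interval were a 1.28-fold rise and a fall to 0.80 of the wild-type level.

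*Bmp5*, expressed in splanchnic mesoderm and myocardium, was read by 3 probes. The brightest (chr9:75746444-75746503, plus strand) read 7.95, 7.81, 7.75 and 7.68 in the mutant pools and 7.76, 7.84 and 7.60 in the wild-type pools. The genotypes interleaved, with a difference of 0.064 ± 0.12 (SE; 95% interval -0.20 to 0.33; limma adjusted p = 0.9997). A second probe, placed by the files across 11394 bases between chr9:75675966 and chr9:75687359 and so on both sides of at least 1 intron, was well above background in 1 mutant and 2 wild-type pools. Its difference had the opposite sign, -0.27 (95% interval -0.72 to 0.18 in the fit without the filter). The third probe, at chr9:75745727-75745786, is placed on the minus strand, opposite to *Bmp5*, and was well above background on no array, so it gives no value for the gene.

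*Bmp7*, a ligand of foregut endoderm, epicardium and myocardium, had 2 probes without shared bases (chr2:172695203-172695262 and chr2:172695282-172695341, minus strand). The brighter read 13.75, 13.76, 13.61 and 13.64 in the mutant pools and 13.72, 13.66 and 13.34 in the wild-type pools. The mutant pools lay close together, and wild-type pool 4 was the lowest array. The differences were 0.12 ± 0.12 and 0.13 ± 0.12 (SE; 95% intervals -0.16 to 0.40 and -0.15 to 0.40; limma adjusted p = 0.9997 for both), and the 2 probes thus read alike.

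*Nog* encodes noggin, an antagonist made by the notochord, the dorsal neural tube and somites, and was the member with the largest negative difference. It read 5.77, 5.16, 5.38 and 5.14 in mutant pools 1 to 4 and 5.55, 5.68 and 5.76 in wild-type pools 1, 3 and 4. Mutant pools 2, 3 and 4 were below every wild-type pool and mutant pool 1 was above them. The difference was -0.31 ± 0.17 (SE; 95% interval -0.68 to 0.07; limma unadjusted p = 0.0975, adjusted p = 0.811; exact two-sided permutation p = 0.171), a fold of 0.81. Within slides 1, 3 and 4 it was 0.21, -0.30 and -0.63. Without mutant pool 1 it was -0.44 (limma unadjusted p = 0.0101, adjusted p = 0.340). Leaving out 1 of the other arrays gave -0.23 (without mutant pool 4) to -0.36 (without wild-type pool 1). The difference was -0.12 with quantile normalization, -0.16 without background correction, -0.18 with 75th percentile scaling and -0.20 with local background.

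Markers of notochord, somite and neural tube had lower values in the mutant pools. The mean over 3 notochord and floor plate markers was 7.31 to 7.51 in the mutant pools and 7.79 to 8.12 in the wild-type pools, with a median difference of -0.64 and all 3 lower. Their summed level, 11489 to 13879 against 13580 to 16422, was almost wholly the signal of the probe of *Foxa2*. This gene is also on the foregut list and read 13.48 to 13.76 in the mutant pools. The other 2 were dim, *T* being well above background in 0 of 4 mutant and 3 of 3 wild-type pools and *Ntn1* in 2 of 4 and 3 of 3. The median difference of the 6 sclerotome markers, of the ventral somite, was -1.07 with 5 lower, and their summed level was 4080 to 5515 against 5619 to 9706. That of the 9 neural tube markers was -0.19 with 7 lower, and their summed level 2278 to 3764 against 4791 to 5700. The list means of all 3 did not overlap between genotypes. The limma test was passed by 2 of the 6 sclerotome, 1 of the 9 neural tube and 0 of the 3 notochord and floor plate markers. Mutant pool 1, the highest pool of all for *Nog*, was the lowest of all for the notochord and sclerotome lists. In the neural tube list it was the highest mutant pool, at 6.26 against 5.91, 5.66 and 5.92 in mutant pools 2, 3 and 4. Each marker of these lists was well above background on at least 1 array. The part of these tissues in the values of *Nog* was not tested. The genes closest to *Nog* over the 7 arrays were *Ttll5* (0.048), *B430006D22Rik* (0.054) and *Eed* (0.068), with the median probe at 0.27.

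*Grem1* encodes gremlin, an antagonist known from limb bud and lateral mesoderm, and had as large a standard error as *Bmp2*. Its probe (chr2:113589227-113589286, minus strand) read 7.55, 8.09, 6.68 and 7.28 in the mutant pools and 7.62, 7.34 and 7.38 in the wild-type pools. The highest and the lowest of the 7 pools, mutant pools 2 and 3, had the same genotype. The difference was -0.048 ± 0.28 (SE; 95% interval -0.69 to 0.59; limma adjusted p = 0.9997), with an SD of 0.59 among mutant and 0.15 among wild-type pools. It was 0.19 without mutant pool 3, 0.039 without wild-type pool 1, and -0.28 both without mutant pool 2, the pool with the possible leak, and with the slide as a replicate block.

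**Figure D3:**
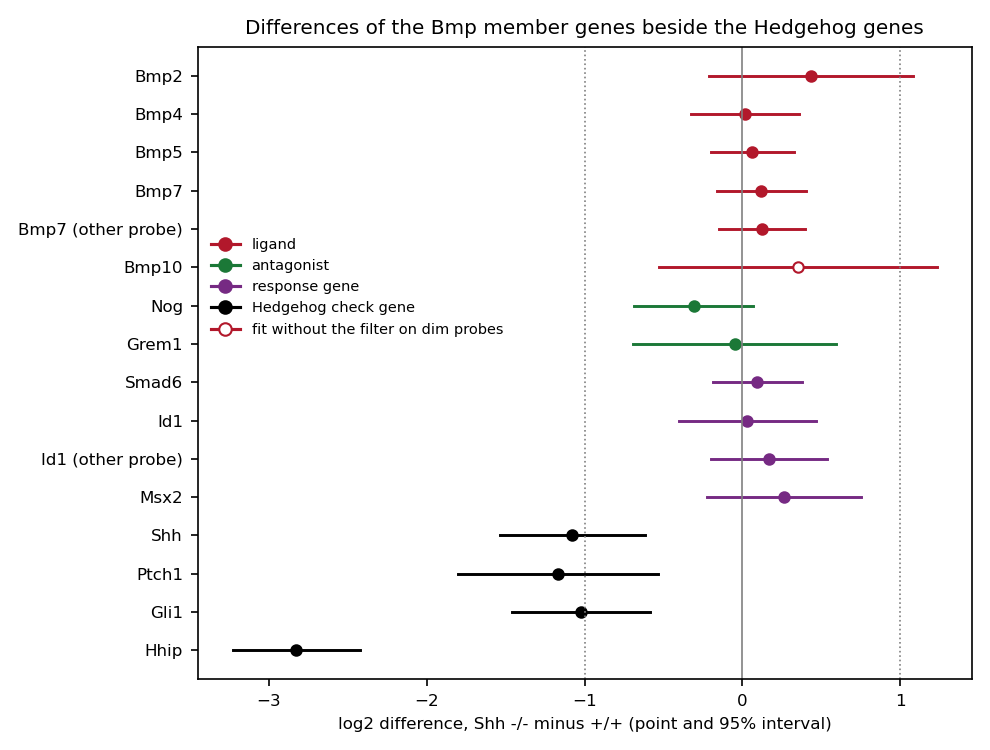
Log2 difference between *Shh* -/- and +/+ pools (horizontal axis) with its 95% interval from limma for each Bmp member, coloured by role, and for *Shh* and 3 Hedgehog pathway genes in black; dotted lines mark 2-fold. Every member interval includes 0, and only those of *Bmp2* and of *Bmp10*, which is drawn open from the fit without the filter on dim probes, pass a dotted line, while the 4 black intervals lie below 0. The second probes of *Bmp7* and *Id1* are also drawn. The other *Bmp5* probes, both dim, are not (-0.27, and -0.31 for the probe on the opposite strand).

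Of the response genes, *Smad6*, the inhibitory Smad, read 11.86, 11.67, 11.55 and 11.46 in the mutant pools and 11.61, 11.54 and 11.48 in the wild-type pools. Mutant pools 1 and 2 were above all wild-type pools, mutant pool 4 was below them and pool 3 lay among them. The difference was 0.096 ± 0.12 (SE; 95% interval -0.19 to 0.38; limma adjusted p = 0.9997), and within slides it was 0.26, 0.015 and -0.015.

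*Id1* encodes a helix-loop-helix protein that binds E proteins and keeps them from DNA. Its brighter probe read 13.44, 13.08, 13.59 and 13.94 in mutant pools 1 to 4 and 13.44, 13.64 and 13.36 in wild-type pools 1, 3 and 4. Mutant pool 4 was the highest and mutant pool 2 the lowest, with the wild-type pools between. The difference was 0.031 ± 0.19 (SE; 95% interval -0.40 to 0.47; limma adjusted p = 0.9997). The other probe, which overlaps it by 50 bases (chr2:152563046-152563105 against chr2:152563036-152563095), gave 0.17 ± 0.16 with mutant pool 4 again the highest.

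*Msx2*, a homeobox gene of neural crest, limb and cushion mesenchyme, had the largest difference of the response genes. Its probe (chr13:53563333-53563392, minus strand) read 11.52, 11.17, 11.69 and 12.17 in the mutant pools and 11.47, 11.45 and 11.19 in the wild-type pools. Mutant pools 1, 3 and 4 were above every wild-type pool and mutant pool 2 was below them. The difference was 0.27 ± 0.21 (SE; 95% interval -0.22 to 0.75; limma adjusted p = 0.9997; exact two-sided permutation p = 0.371), and within slides it was 0.058, 0.23 and 0.97, positive on all 3. Without mutant pool 4 it was 0.089, and without mutant pool 2 it was 0.42 (limma unadjusted p = 0.0506, adjusted p = 0.648).

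The members were set beside 53 other genes of the pathway, all of which are on the array. Of these, 49 were tested and 1 fell, *Chrdl1*, while none rose (limma, adjusted p under 0.05, with 0.294% of all probes called lower and 0.264% higher). The genotypes did not overlap for 5 of the 49 with lower and 4 with higher mutant values, where 3.56% and 4.78% of all probes showed these patterns. The median difference of the list was -0.023, with 28 tested genes lower and 21 higher. By role, the tested medians were -0.039 for 6 ligands, -0.067 for 10 receptors and co-receptors, -0.071 for 16 extracellular antagonists and modulators, 0.013 for 6 signal transducers and 0.060 for 11 response genes.

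*Chrdl1* encodes chordin-like 1, a secreted Bmp antagonist. It read 9.11, 9.23, 9.19 and 9.41 in mutant pools 1 to 4 and 10.10, 9.92 and 9.83 in wild-type pools 1, 3 and 4. All mutant pools were below all wild-type pools, and the difference was -0.72 ± 0.12 (SE; limma adjusted p = 0.0475). A second probe gave -0.79 ± 0.34 (limma adjusted p = 0.609), and the remaining probe was well above background on no array. The call was lost with the slide as a replicate block (-0.72, adjusted p = 0.152) and on leaving out any 1 array, with adjusted p from 0.0537 without mutant pool 4 to 0.228 without wild-type pool 1, whereas the difference stayed between -0.78 and -0.64.

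Among the ligands of the list, *Gdf6*, a growth differentiation factor of joints, skull and eye, read 9.44, 9.40, 9.61 and 9.44 in the mutant pools and 8.87, 8.91 and 8.67 in the wild-type pools. Every mutant pool was higher than every wild-type pool, by 0.65 ± 0.11 on average (SE; limma adjusted p = 0.0518). SAM called *Gdf6* and *Chrdl1*. The septum transversum markers and the liver bud markers were also higher in every mutant pool, by list mean, with median differences of 0.53 over 5 genes and 0.88 over 8 genes, 4 of the latter passing the limma test. Their summed levels were 20431 to 23428 against 14369 to 17080 for the septum transversum, and 147531 to 200457 against 135051 to 147619 for the liver bud, with every marker well above background on all arrays. The part of those tissues in the *Gdf6* values was not tested.

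Of the receptors and co-receptors, 4 of 10 had lower and 1 had higher values in every mutant pool. Over all probes these patterns were seen in 3.56% and 4.78%. Of the 10 genes, 0 passed the limma test, and whether the role differs from all probes was not tested. *Acvr1*, a type I receptor also called ALK2, read 11.10, 10.89, 10.72 and 10.75 in the mutant pools and 10.28, 10.47 and 10.44 in the wild-type pools. The groups were separate, by less than the range of the mutant pools, and the difference was 0.47 ± 0.13 (SE; limma adjusted p = 0.219). *Acvrl1*, the ALK1 receptor of endothelium, differed by -0.64 ± 0.20 (limma adjusted p = 0.318), while 7 of 8 endothelial markers had positive differences with a median of 0.047. The co-receptors of the repulsive guidance molecule family, *Rgma* and *Rgmb*, differed by -0.42 ± 0.14 and -0.29 ± 0.11 (limma adjusted p = 0.358 and 0.441). The type I receptor *Bmpr1b* differed by -0.17 ± 0.10 (limma adjusted p = 0.873).

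The other 2 genes of the list without overlap were *Bambi*, a pseudoreceptor induced by Bmp signaling, and *Fstl1*, a secreted follistatin-like protein. *Bambi* read 14.08, 14.25, 14.16 and 14.31 in the mutant pools and 13.72, 13.98 and 13.74 in the wild-type pools. The values of the genotypes were close but separate, with a difference of 0.39 ± 0.12 (SE; limma adjusted p = 0.289), and a second, dimmer probe, well above background in 1 pool of each genotype, gave -0.52. *Fstl1* differed by 0.17 ± 0.11 (limma adjusted p = 0.915).

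**Figure D4:**
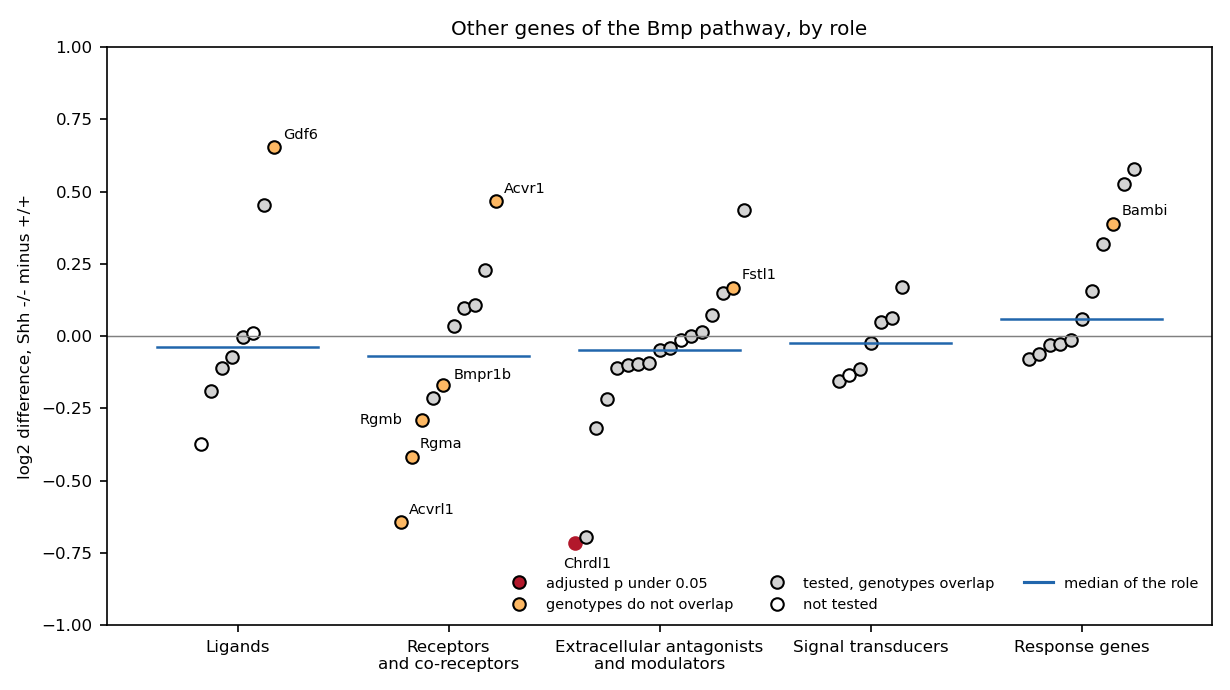
Log2 difference between *Shh* -/- and +/+ pools (vertical axis) of 53 other Bmp pathway genes, ordered within each role, with the role's median over all its genes as a blue line. Only *Chrdl1* (red) passed an adjusted p of 0.05, the 8 orange genes had no overlap between genotypes, and open points were not tested; differences of the signal transducers lay between -0.16 and 0.17.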

How the data were processed

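The deposited scans list spots with a mean signal and a local background, both as intensity, from the authors' run of Feature Extraction 10.5.1.1 named in the labels. A further deposited table gives the authors' normalized log2 values (26255 probes), made by background correction of a kind not given in the sources used here, removal of outlier features and VSN. Their array medians run from 5.50 to 9.93, so the centring stays unknown. Genotypes came from sample titles, since the characteristics give the strain under genotype and the genotype under strain. The pools are given as separate, and the study's methods count more pools of each genotype than there are arrays here. How those pools map to the arrays is not given, and each array is treated as a separate pool. The limma p-values set a difference against the spread between arrays of a genotype, moderated over all probes tested.

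Mean signals were corrected by normexp against 153 negative control spots per array (offset 50), normalized by an own VSN (trimming share 0.9, 7 iterations, 5 strata) and averaged per probe without 155 to 206 outlier spots per array. A probe with a gene name was tested when all arrays of at least 1 genotype were well above background (23116 probes, 14890 genes). limma 3.58.1 in R 4.3.3, with the data.table package (1.17.8), gave differences and Benjamini-Hochberg adjusted p over all probes tested, at a threshold of 0.05. A gene was counted by its brightest probe. The scripts were tested on simulated data. Figures used matplotlib 3.10.9 and pandas 2.3.3 in Python 3.11.15.

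Members and lists were chosen with earlier results of these data known. Named were all members, the Hedgehog check genes, pathway genes that were called or were among the 5 largest changes without overlap in a direction, the 3 genes most like the members with the largest rise and fall, and marker lists that moved with a member. *Noto* and *Sox3* of the marker lists were not found on the array.

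The replicate number marks a shared slide in the labels. Deviations from the genotype means correlated at 0.19, 0.24 and 0.033 within slides, and at -0.22 to 0.19 between slides. Slide as a block, in which mutant pool 2 carries no weight, was an alternative, beside quantile normalization, 75th percentile scaling, no or local background correction, the processed signal, the authors' values, other filters, outlier spots kept, SAM over all 35 splits, and each array left out. The deposited log2 values brought to 1 common median were added after seeing the data. Agilent probe positions are on mm9, and no reference sequence was used.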

Additional observations from a re-analysis of the deposited data

Results flagged for a closer look

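Among the 4 mutant pools, 2 member probes had 1 pool standing apart by Dixon's ratio, the gap to the nearest pool over the range. The ratio lay above its 95% critical value for 4 values, which chance alone exceeds in about 1 in 20 groups. Mutant pool 1 of *Bmp4* had a ratio of 0.931, at 11.24 against 11.59 to 11.61 in the other mutant pools, and wild-type pool 1 on the same slide read 11.25. Mutant pool 4 of the second, dim *Bmp5* probe had a ratio of 0.851, at 4.08 against 4.66 to 4.76.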

How the results depend on the processing

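No tested member was called under any of 19 alternatives. These tested 9 or 10 members each, except the interquartile range filter, which tested 6, and *Bmp10* was tested only without the filter on dim probes and on leaving out mutant pool 4 or wild-type pool 1. Differences kept their sign except as follows. *Bmp4* was -0.019 with 75th percentile scaling, -0.020 with local background, -0.024 with the processed signal, -0.044 with quantile normalization, -0.029 without background correction, -0.025 with outlier spots kept, -0.012 with the replicate block, and -0.11 to 0.13 with 1 array left out. *Id1* was -0.0048 with 75th percentile scaling, -0.021 with quantile normalization, -0.016 without background correction, -0.026 with the processed signal, and -0.11 to 0.18 with 1 array left out. *Bmp5* was -0.023 with local background and -0.0036 to 0.12 with 1 array out, and *Grem1* -0.28 to 0.19. The authors' values, whose medians differ between arrays, put the median difference over all probes at -0.54. They put *Bmp2* at -0.18, *Bmp4* at -0.60, *Bmp5* at -0.56, *Bmp7* at -0.32, *Smad6* at -0.53, *Id1* at -0.50 and *Msx2* at -0.36, with medians of -0.32 for ligands, -0.62 for antagonists and -0.50 for response genes. Set to 1 median, they put *Nog* at 0.027.

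Probes called over the whole array, 129 of which 52.7% were lower, numbered 21 (90.5% lower) with local background, 54 (66.7%) with the processed signal, 0 with the authors' values by limma (28 at an unadjusted p under 0.05, and 1040 set to 1 median, also 0 called), 33 without the filter on dim probes, 261 with SAM, and 12 (without mutant pool 3) to 139 (without mutant pool 1) with 1 array out. Pairing by slide, as a replicate block, left 11 probes called (0.0476%) and changed no member's call. The pathway count was 1 with 75th percentile scaling, quantile normalization and no background correction, 2 with SAM, and 0 under every other alternative, the replicate block and leaving out any 1 array included.

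With 7 arrays, the median 95% interval over all probes reached 0.33 to either side, and changes of a member within its own interval were not excluded. Nor is the interval a limit of detection, since larger changes can miss the adjusted threshold. *Shh* differed by -1.08, with an interval of -1.54 to -0.62, and was not called (limma adjusted p = 0.0652). *Bmp10* was well above background in 5 of 7 pools only. The cause of the reversals was not tested.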
